A study of Mus musculus with 4 samples.

Results

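Neurexins, excitatory-synapse neuroligins and leucine-rich repeat transmembrane neuronal (Lrrtm) proteins were followed at the transcript level in the prelimbic cortex of adult mice exposed to fluoxetine before birth. All probe sets annotated to 1 symbol only were taken where that symbol was Nrxn2, Nrxn3, Nlgn1, Nlgn3, Lrrtm1, Lrrtm2, Lrrtm3 or Lrrtm4, which gave 24 probe sets for the 8 genes, of 45101 in the value table and 34945 with 1 symbol. Total RNA of punched medial prefrontal cortex was hybridised to Affymetrix 3' expression arrays. The fluoxetine group held 2 arrays of male mice exposed to the drug, a selective serotonin reuptake inhibitor, before birth, and the untreated group held 2 arrays of control male mice. Both groups were taken on postnatal day 90. Strain, dose, gestational window of exposure and the number of mice or litters behind an array are not given in the sources used here. Any p-value therefore concerns only these arrays, called biological duplicates by the submitters. Its estimate of the spread, like every SE given, also draws on other probe sets of similar level.

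Neurexins are presynaptic adhesion molecules that reach across the synaptic cleft to bind several postsynaptic partners. Neuroligins and Lrrtm proteins are among these partners, and on the postsynaptic side they bind the scaffold PSD-95 and help to hold glutamate receptors in place. Nlgn1 is the neuroligin of excitatory synapses, Nlgn3 is found at excitatory and inhibitory ones, and Nlgn2 at inhibitory ones. Lrrtm1 and Lrrtm2 bind neurexins, while Lrrtm3 and Lrrtm4 also act through heparan sulphate carried by neurexins and glypicans.

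Lrrtm2, an organizer that anchors AMPA-type glutamate receptors at excitatory synapses, stood higher on both fluoxetine arrays than on both untreated arrays with each of its 3 probe sets, by 1.23-fold, 1.24-fold and 1.25-fold. Nlgn1 was 1.46-fold higher with 1 probe set, with widely spread arrays, and not with the other. The brighter Nrxn2 probe set was lower with fluoxetine by a small amount, and the remaining 19 probe sets did not reach an unadjusted p below 0.05. No probe set of the 8 genes passed the correction over all 34945 tested probe sets (limma with an intensity trend, Benjamini-Hochberg adjustment), where the lowest adjusted p among them was 0.331. Only 1 probe set of the whole table had an adjusted p below 0.05 (0.00286%), a Homer1 probe set described further on.

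At an unadjusted p below 0.05, 4 of the 24 probe sets were higher with fluoxetine and 1 was lower. Without fluoxetine replicate 1 both counts fell, and so did both shares over all tested probe sets. Without untreated replicate 1 the lower count rose, and so did the lower share. With all 4 arrays, the background shares were 6.40% higher and 3.04% lower over all tested probe sets. They were 10.0% higher and 1.68% lower among the 17472 probe sets above the median level of 7.12, where 21 of the 24 lay. Of the 4 higher ones 3 belong to Lrrtm2, so that they are repeated readings of 1 gene. Both fluoxetine arrays lay above both untreated arrays in 7 of the 24 probe sets and below them in 4, beside 19.9% and 20.0% of all tested probe sets and 27.5% and 15.0% of those above the median level. Their median log2 difference was 0.04, beside −0.01 over all tested probe sets and 0.02 over those above the median level. The median size of the difference regardless of sign was 0.092, beside 0.094 over all and 0.067 above the median level.

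**Figure D1:**
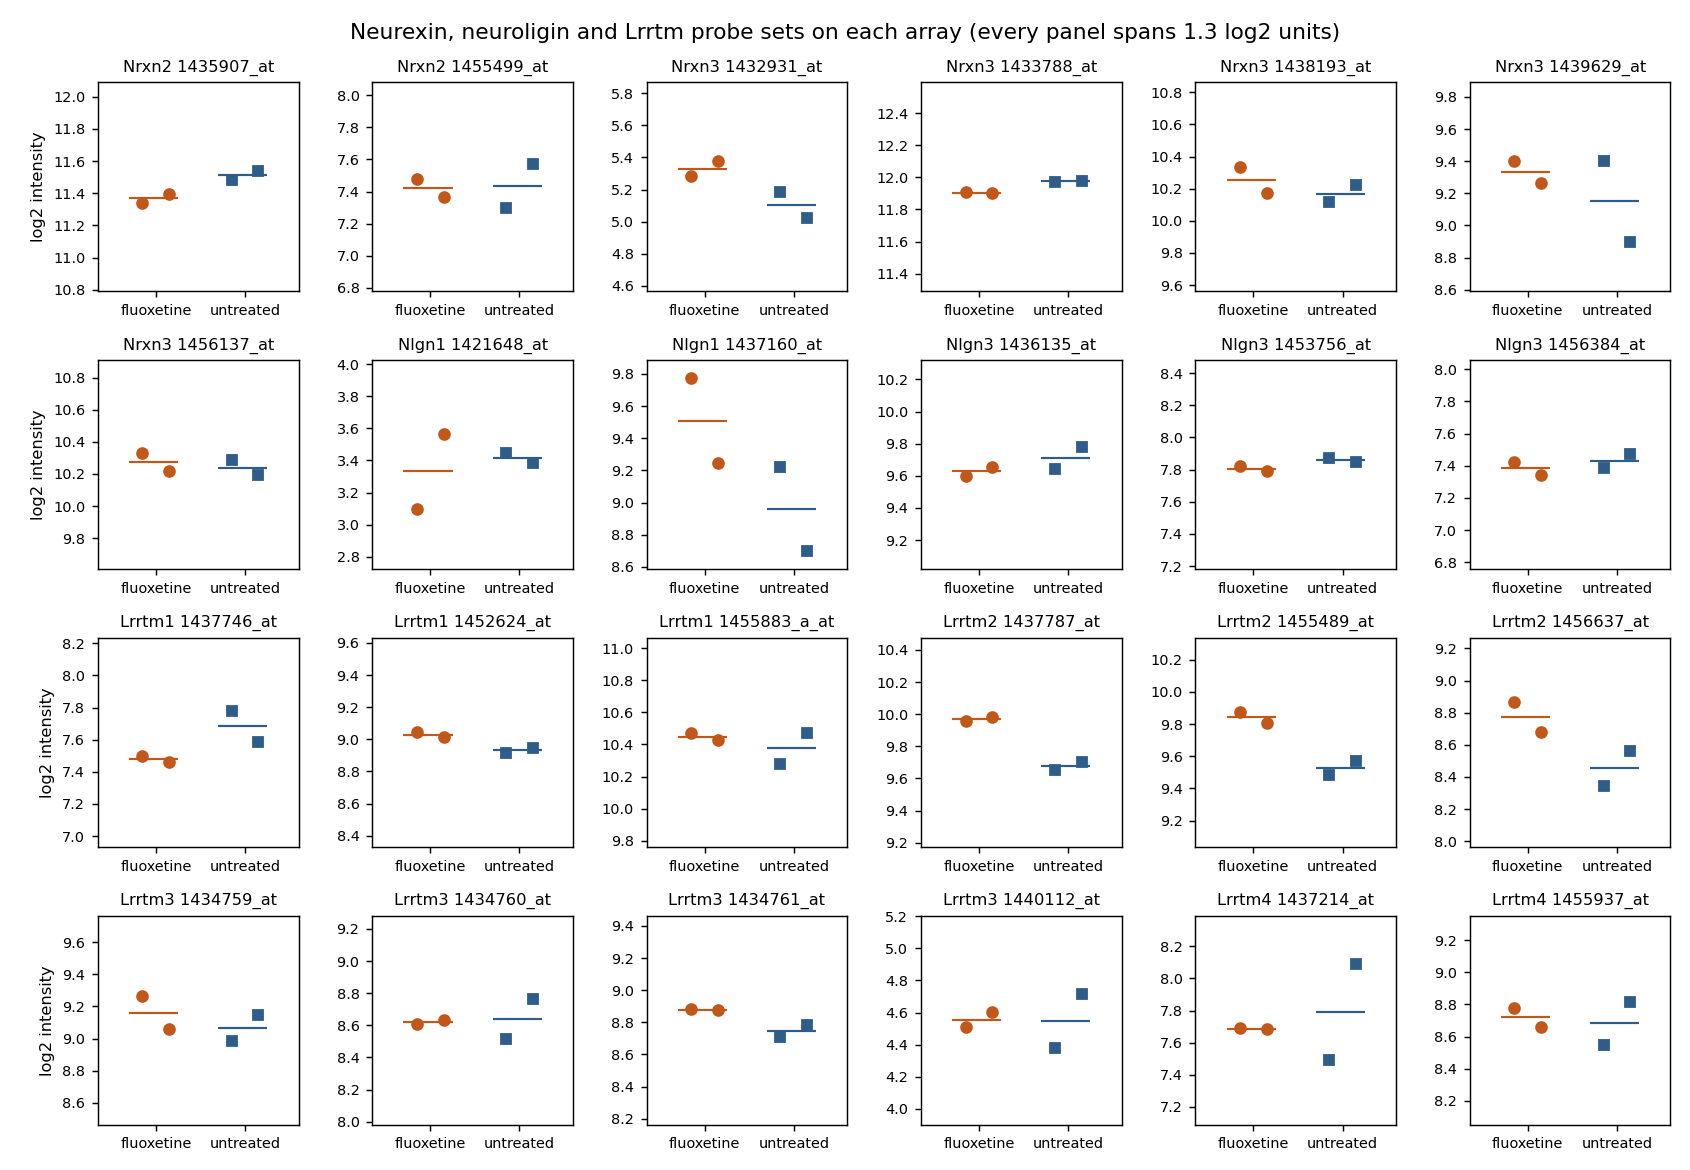
Log2 intensity of each of the 24 probe sets on the 2 fluoxetine arrays (circles) and the 2 untreated arrays (squares), with horizontal lines at the group means; every panel spans the same range of log2 units around its own centre. The 3 Lrrtm2 panels have both circles above both squares, while in the panel of Nlgn1 1437160_at the arrays of each group lie far apart.

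Postsynaptic Lrrtm genes are given first. Lrrtm2 probe set 1437787_at read 9.96 and 9.98 on the fluoxetine arrays, against 9.65 and 9.70 on the untreated arrays. Probe set 1455489_at read 9.87 and 9.81 with fluoxetine, against 9.48 and 9.57 in untreated mice. Probe set 1456637_at read 8.87 and 8.68 with fluoxetine, against 8.35 and 8.56 in untreated mice. The groups did not overlap in any of the 3, and the gap between the nearest arrays of the groups was 0.26, 0.24 and 0.11.

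The log2 differences of Lrrtm2 were 0.29 (SE 0.06, adjusted p = 0.331), 0.31 (SE 0.06, adjusted p = 0.341) and 0.32 (SE 0.10, adjusted p = 0.431) by limma, with 95% intervals of 0.16 to 0.43, 0.16 to 0.47 and 0.07 to 0.56. The lowest and the highest of the 3 differences were 0.024 apart. For 1437787_at the difference ran from 0.27 to 0.32 when each array was left out in turn, and its unadjusted p stayed below 0.05 in all 10 alternative settings. That of 1455489_at ran from 0.27 to 0.36 and stayed below 0.05 in the 9 settings that hold it. The third probe set ran from 0.21 to 0.43, and its unadjusted p was 0.143 without fluoxetine replicate 1, 0.108 without untreated replicate 1 and 0.052 without the intensity trend. Averaged over the 3 probe sets, Lrrtm2 stood at 9.53 ± 0.05 with fluoxetine and 9.22 ± 0.08 in untreated mice (SD, n = 2 each). With 2 arrays a group, the smallest p of an exact permutation test (two-sided) is 0.333.

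Lrrtm2 lies inside the span of another gene in RefSeq's annotation (assembly GRCm38.p6), Ctnna1, which encodes the adherens junction protein alpha-E-catenin. Lrrtm1 and Lrrtm3 lie in the same way inside Ctnna2 and Ctnna3, on the opposite strand, and no such host was found for Lrrtm4. The catenin genes were looked up after the Lrrtm2 values were seen. Ctnna1 probe set 1448149_at read 10.32 and 10.35 with fluoxetine, against 10.22 and 10.47 in untreated mice, a log2 difference of −0.0048 (SE 0.08). Its probe set 1437807_x_at differed by 0.06 (SE 0.09), and with both the groups overlapped. A further pair of Ctnna1 probe sets lay between 0.77 and 3.11, near the floor of the arrays. Ctnna2 differed by 0.13 (SE 0.08), and the probe sets of Ctnna3 by −0.10 (SE 0.17) and 0.09 (SE 0.14). None of these host probe sets reached an unadjusted p below 0.05.

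Lrrtm1, which in mice is expressed in forebrain neurons, did not go one way with its 3 probe sets. Probe set 1452624_at read 9.05 and 9.01 with fluoxetine, against 8.92 and 8.94 in untreated mice, and probe set 1437746_at read 7.50 and 7.46 with fluoxetine, against 7.78 and 7.59. The groups did not overlap in either, with opposite signs: the log2 differences were 0.10 (SE 0.07) and −0.20 (SE 0.10). The probe set 1455883_a_at read 10.47 and 10.43 with fluoxetine, against 10.28 and 10.47 in untreated mice, and differed by 0.07 (SE 0.07). Adjusted p-values of Lrrtm1 ran from 0.587 to 0.794 in the limma fit, and the 95% intervals together from −0.44 to 0.25.

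Lrrtm3, a neurexin partner that also binds heparan sulphate, had 4 probe sets, 3 of them designed on the same source sequence in the platform annotation. Of these, 1434761_at read 8.88 on both fluoxetine arrays, against 8.71 and 8.78 in untreated mice, and was the only Lrrtm3 probe set whose groups did not overlap (log2 difference 0.13, SE 0.07). The other two of that design, 1434759_at and 1434760_at, differed by 0.10 (SE 0.09) and −0.02 (SE 0.10). The dim probe set 1440112_at, at 4.38 to 4.71 over the arrays, differed by 0.01 (SE 0.17). None reached an unadjusted p below 0.05.

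Lrrtm4, which binds the glypican Gpc4 and is best known at synapses of hippocampal granule cells, was spread more widely among untreated than among fluoxetine arrays. Probe set 1437214_at read 7.69 and 7.68 with fluoxetine, against 7.49 and 8.09 in untreated mice, and 1455937_at read 8.78 and 8.66, against 8.55 and 8.81. In both, untreated replicate 2 was the highest array and untreated replicate 1 the lowest. The log2 differences were −0.10 (SE 0.18) and 0.04 (SE 0.10), and that of 1437214_at was 0.20 without untreated replicate 2 and −0.40 without untreated replicate 1. Direction and size for Lrrtm4 thus depended on which untreated array was kept.

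**Figure D2:**
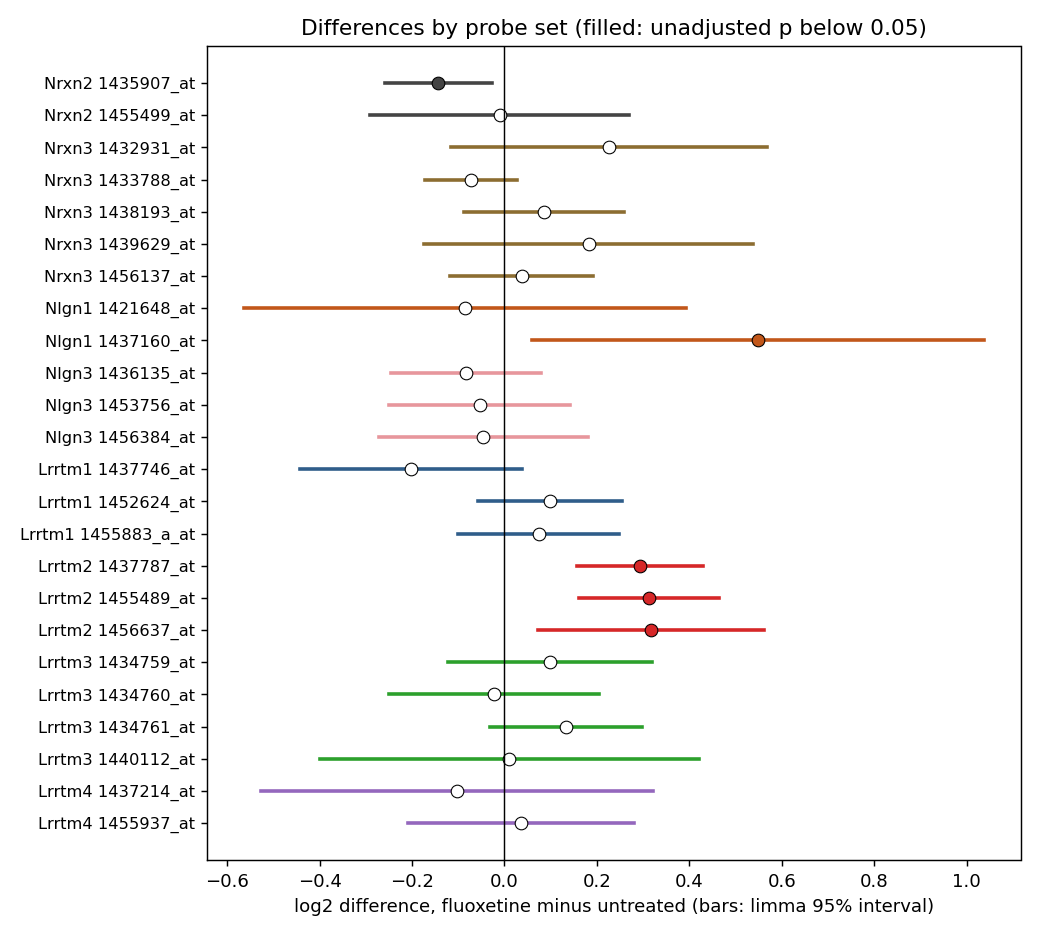
Log2 difference (fluoxetine minus untreated) of each probe set with limma's 95% interval; filled circles mark an unadjusted p below 0.05. The 3 Lrrtm2 intervals, from 0.07 at the lowest to 0.56 at the highest, overlap each other, and the 2 Nlgn1 probe sets lie at −0.08 and 0.55.

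Among the neuroligins, Nlgn1 had the largest difference of the 24 probe sets and also the largest SE. Probe set 1437160_at read 9.78 and 9.24 with fluoxetine, against 9.22 and 8.70 in untreated mice. The nearest arrays of the groups were only 0.022 apart, and the arrays of a group differed about as much as the groups did (SD 0.38 with fluoxetine and 0.37 in untreated mice). The log2 difference was 0.55 (SE 0.21, 95% interval 0.06 to 1.04, limma adjusted p = 0.486). It was 0.28 without fluoxetine replicate 1 and 0.29 without untreated replicate 2, where the unadjusted p was 0.223 and 0.245 (0.096 without the intensity trend), and 0.82 without fluoxetine replicate 2. The other Nlgn1 probe set, 1421648_at, read 3.10 and 3.56 with fluoxetine, against 3.45 and 3.38 in untreated mice. Its level lay well below the median of 7.12 over all tested probe sets, and its difference was −0.08 (SE 0.20).

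Nlgn3, an X-linked neuroligin, had differences slightly below 0 with all 3 of its probe sets, and none reached an unadjusted p below 0.05. Probe set 1436135_at read 9.60 and 9.65 with fluoxetine, against 9.65 and 9.78 in untreated mice. The log2 differences were −0.08 (SE 0.07), −0.05 (SE 0.08) and −0.05 (SE 0.10), with 95% intervals between −0.27 and 0.18. The groups were apart with 1453756_at, by 0.026, and overlapped with the others. Nlgn2, the inhibitory-synapse neuroligin, differed by −0.06 (SE 0.05) and −0.18 (SE 0.12) with its 2 probe sets, with adjusted p-values of 0.764 and 0.683 in the limma fit.

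Of the presynaptic neurexins, Nrxn2 read 11.34 and 11.40 with probe set 1435907_at on the fluoxetine arrays, against 11.49 and 11.54 in untreated mice. Both fluoxetine arrays lay below both untreated arrays, and the fluoxetine level was 0.905-fold the untreated one. The log2 difference was −0.14 (SE 0.05, 95% interval −0.26 to −0.03, limma adjusted p = 0.448). It ran from −0.17 to −0.11 with an array left out, and the unadjusted p was 0.138 without fluoxetine replicate 1, 0.094 without untreated replicate 2 and 0.124 without the intensity trend. The other Nrxn2 probe set, 1455499_at, is annotated to the same source sequence and read 7.48 and 7.37 with fluoxetine, against 7.30 and 7.57 in untreated mice. Its groups overlapped and its difference was −0.01 (SE 0.12).

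Nrxn3, whose transcripts start from separate promoters and are spliced into many forms, had 5 probe sets that did not go one way. The brightest, 1433788_at, read 11.91 and 11.90 with fluoxetine, against 11.97 and 11.98 in untreated mice. These groups were apart, by 0.07 on the log2 scale, and the difference of −0.07 (SE 0.04) did not reach an unadjusted p below 0.05, but it was −0.10 with an unadjusted p of 0.030 after another quantile normalization. Probe set 1432931_at read 5.28 and 5.38 with fluoxetine, against 5.19 and 5.02, a difference of 0.23 (SE 0.14) at a level below the median of the array. In 1439629_at the difference of 0.18 (SE 0.15) came with a low reading of 8.90 in untreated replicate 2, below the 9.26 to 9.40 of the remaining arrays, and was −0.07 when that array was left out. The remaining probe sets, 1438193_at and 1456137_at, differed by 0.09 (SE 0.07) and 0.04 (SE 0.07).

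**Figure D3:**
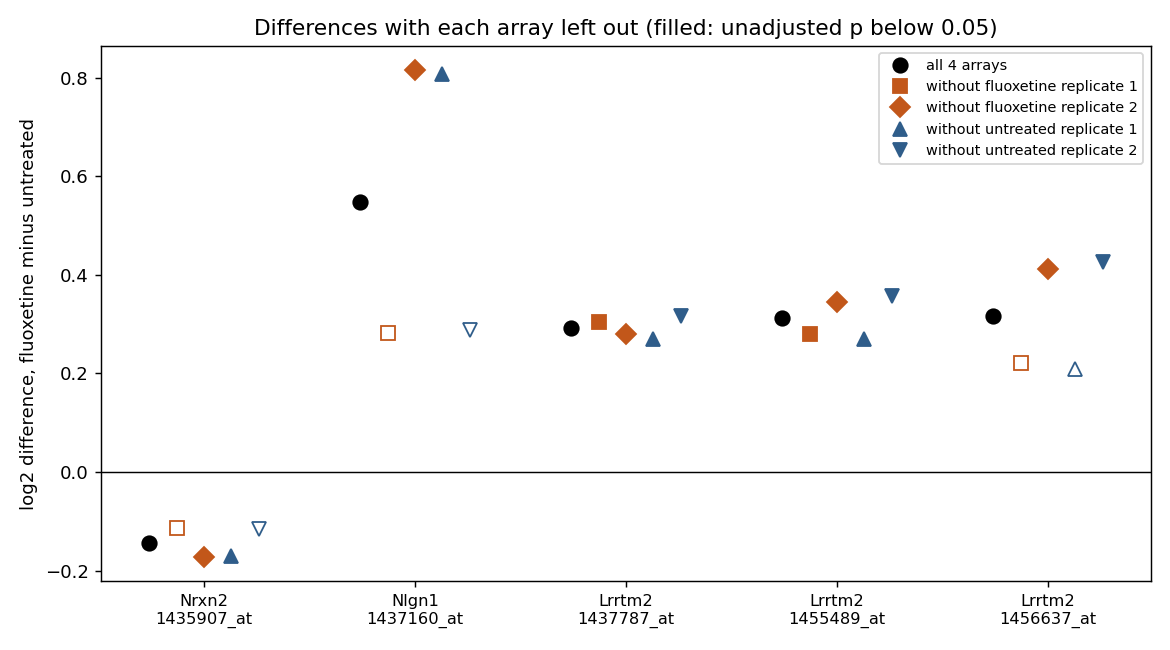
Log2 differences of the 5 probe sets with an unadjusted p below 0.05, with all 4 arrays and with each array left out; filled symbols have an unadjusted p below 0.05. Lrrtm2 1437787_at and 1455489_at stay filled throughout, at 0.27 to 0.36, while Nlgn1 1437160_at runs from 0.28 to 0.82.

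The precision of the design bounds what could be seen. For 23 of the 24 probe sets the 95% interval of the difference lay within 1.5-fold in either direction, the exception being Nlgn1 1437160_at. The dim Nlgn1 probe set, with an interval of −0.56 to 0.39, is among the 23, and 3 of the 24 probe sets in all lay below the median level, where background adds to the reading. The difference between Lrrtm2 and its relatives was not tested.

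**Figure D4:**
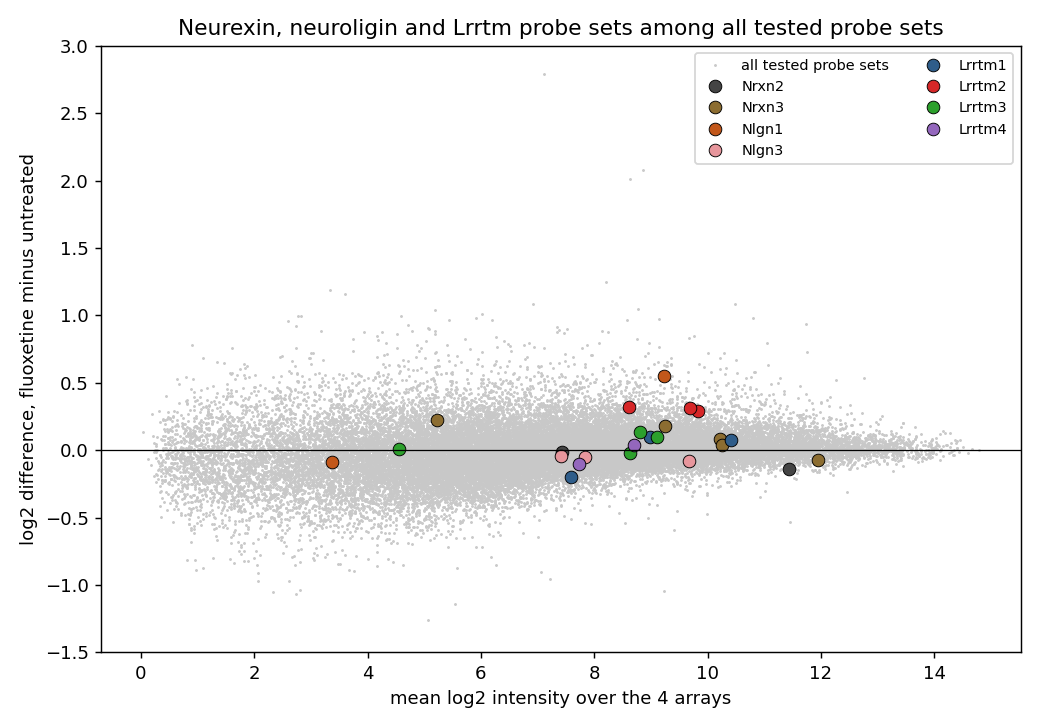
Log2 difference (fluoxetine minus untreated) against the mean log2 intensity for all 34945 tested probe sets (grey) and the 24 probe sets of the 8 genes (coloured). By the size of the difference regardless of sign, the Lrrtm2 probe sets stood at percentiles 89.3, 90.9 and 91.1 of all tested probe sets. Nlgn1 1437160_at stood at 98.6, and the other coloured points lie closer to the zero line.

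Other genes of trans-synaptic adhesion were described from 4 lists with 111 genes, of which 102 had 267 named probe sets. At an unadjusted p below 0.05, 34 of the 267 were higher, 10 lower and 223 did not pass, with a median log2 difference of 0.02. Partners of neurexins and of their ligands had 8 higher and 1 lower of 63. Other synapse organizers had 10 higher and 6 lower of 98, scaffolds and glutamate receptors 11 higher and 1 lower of 59, and factors of neurexin splicing and shedding 5 higher and 2 lower of 47. The backgrounds given above, 6.40% and 3.04% over all levels and 10.0% and 1.68% above the median level, apply to these counts too. Both the 34 and the 10 fell without fluoxetine replicate 1, and the 10 also fell without fluoxetine replicate 2. The shares of the same direction over all tested probe sets fell in these settings too. Without fluoxetine replicate 2 the higher count rose slightly while its share fell. Both counts also fell without untreated replicate 2, by less, while both shares rose. Without untreated replicate 1 the higher count fell and the lower count rose, and so did their shares.

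Homer1, a postsynaptic scaffold with a short activity-induced form, had the smallest p-values of these lists. Its probe set 1436387_at read 11.04 and 10.99 with fluoxetine, against 9.88 and 9.99 in untreated mice, a log2 difference of 1.08 (SE 0.06, limma adjusted p = 0.0116). It was the only probe set past the correction, and none passed without fluoxetine replicate 1, fluoxetine replicate 2 or untreated replicate 2, nor without the intensity trend. A dimmer Homer1 probe set, 1425671_at, differed by 0.996 (SE 0.17, adjusted p = 0.331 by limma). The 6 Homer1 probe sets ran from 0.02 to 1.08, with 4 of them higher at an unadjusted p below 0.05, and the brightest, 1437363_at, was the one at 0.02 (SE 0.04), with overlapping groups. Among the other probe sets with the smallest p-values, those with higher values belong to the splicing regulator Rbfox1 (1418314_a_at, 0.30, SE 0.05), the vesicle calcium sensor Syt1 (1431191_a_at, 0.61, SE 0.12), the AMPA receptor subunit Gria3 (1420563_at, 0.57, SE 0.12) and the adaptor Apba2 (1427288_at, 0.39, SE 0.09). Apba2 had no other probe set and both of Gria3 were higher, but those of Rbfox1 ran from 0.05 to 0.30 and those of Syt1 from −0.0020 to 0.61, with 2 of 4 passing in each.

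Probe sets with lower values belong to the heparan sulphate proteoglycan Sdc3 (1420853_at, −0.26, SE 0.08), the adhesion protein Cadm1 (1417378_at, −0.16, SE 0.05), the teneurins Tenm2 (1420718_at, −0.34, SE 0.10) and Tenm4 (1434530_at, −0.22, SE 0.07), the latrophilin ligand Flrt3 (1429310_at, −0.25, SE 0.08) and the splicing regulator Rbfox3 (1456149_at, −0.19, SE 0.06). In each of these genes only 1 probe set passed. Differences ran up to 0.25 over the 4 probe sets of Cadm1, to 0.08 over the 3 of Rbfox3, to 0.03 over the 3 of Sdc3 and the 3 of Tenm4, and to 0.04 over the 4 of Tenm2. The other Flrt3 probe set differed by −0.12.

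Median log2 intensities over the whole table were 6.44 and 6.47 on fluoxetine arrays and 6.50 and 6.48 on untreated arrays, and array pairs correlated at 0.996 to 0.997. Markers of excitatory neurons, of which 5 of 6 were measured, had mean levels of 9.48 to 13.92. Their summed linear intensity was 19960 to 20679 with fluoxetine and 19821 to 20464 in untreated mice. Whether the punches held only cortex was not tested. The 8 astrocyte markers summed to 31169 to 31650 with fluoxetine and 29535 to 29553 in untreated mice, with 5 of 8 higher on both fluoxetine arrays. The 4 markers of oligodendrocyte precursors summed to 1439 to 1465 with fluoxetine and 1520 to 1612 in untreated mice, with 1 of 4, Pdgfra, lower on both fluoxetine arrays. Markers of oligodendrocytes and myelin, 10 of 11 measured, summed to 45625 to 45906 with fluoxetine. Their sums were 45306 and 50629 in untreated replicates 1 and 2, and 4 of 10 were lower on both fluoxetine arrays. Striatal markers, 10 of 12 measured, summed to 7851 to 9504 with fluoxetine, and to 8313 and 16038 in untreated replicates 1 and 2. The 6 meningeal fibroblast markers summed to 1721 to 1816 with fluoxetine and 1638 to 1720 in untreated mice. Of these 6, 2 were higher and 2 lower on both fluoxetine arrays. The sums of inhibitory neuron, microglia and endothelial markers overlapped between the groups. Beside these marker counts, both fluoxetine arrays lay above both untreated arrays in 19.9% of all tested probe sets and below them in 20.0%. Above the median level these shares were 27.5% and 15.0%. The poly-A control transcripts, added before labelling, were higher with fluoxetine in 24 of 24 probe sets, by a median log2 difference of 0.24. The part of these in the values of Lrrtm2, Nlgn1 and Nrxn2 was not tested. Without untreated replicate 2 the Lrrtm2 differences were 0.32, 0.36 and 0.43, that of Nlgn1 1437160_at was 0.29 (unadjusted p 0.245) and that of Nrxn2 1435907_at was −0.12 (unadjusted p 0.094). In punches of tissue, fewer cells of a type and less RNA per cell cannot be told apart.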

How the data were processed

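The deposited table holds 1 log2 intensity per probe set and array. Per the submitters' processing notes, the authors used RMA, affy and limma; versions, genome build and background correction are not given in the sources used here. Array minima of −0.08 to −0.01 are lower than plain RMA usually leaves. Gene symbols came from the platform annotation: 34945 probe sets had 1 symbol and were tested, 932 had several, 9160 had none and 64 were controls. Array number limits the precision, with 2 arrays a group.

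Fluoxetine was compared with untreated in limma 3.58.1 (R 4.3.3; lmFit, eBayes with an intensity trend, 2 residual and 5.11 prior degrees of freedom), two-sided, adjusted over all tested probe sets at a threshold of 0.05, with no filter, no pairing and probe sets kept separate. A difference is the fluoxetine mean minus the untreated mean, and background can shrink the differences of dim transcripts. The code was tested on simulated data. All probe sets of the 8 genes were named; of the other lists, up to 6 per direction with the smallest p, and Nlgn2. Genes, lists and rules were chosen with earlier results of these data known. Alternatives were another quantile normalization, subtraction of array medians, no intensity trend, only probe sets above the median level, 1 probe set per gene, unnamed probe sets added, and each array left out. No sequences are shown, since the probes' own were not used here.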

Additional observations from a re-analysis of the deposited data

How the results depend on the processing

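Of the 24 log2 differences, 120 of 125 values under the 6 settings that keep all arrays stayed on their side of zero and of an unadjusted p of 0.05, and 72 of 96 with an array left out. Among the former, Lrrtm4 1455937_at was −0.0047 after another quantile normalization. With an array left out, the sign turned within −0.15 to 0.12 for Nrxn2 1455499_at, −0.068 to 0.43 for Nrxn3 1439629_at, −0.019 to 0.093 for Nrxn3 1456137_at, −0.32 to 0.15 for Nlgn1 1421648_at, −0.024 to 0.17 for Lrrtm1 1455883_a_at, −0.0038 to 0.20 for Lrrtm3 1434759_at, −0.15 to 0.10 for Lrrtm3 1434760_at, −0.16 to 0.18 for Lrrtm3 1440112_at, −0.40 to 0.20 for Lrrtm4 1437214_at and −0.10 to 0.17 for Lrrtm4 1455937_at. The 4 higher of the 24 were 2 without the intensity trend, 2 with 1 probe set per gene, where only 8 were tested, and 2 to 4 with an array left out. The 1 lower was 2 after another quantile normalization, 0 without the trend and 0 to 2 with an array left out. The member count at an adjusted p below 0.05 was 0 in every setting. Over all probe sets the 1 at an adjusted p below 0.05 was 0 without the trend and with 1 probe set per gene, and 0 to 1 with an array left out. The counts by unadjusted p, 2237 higher and 1064 lower, were 628 and 638 with 1 probe set per gene (3.45% and 3.51%). Above the median level 301 (1.72%) were lower. Without the trend the counts were 1556 and 1535 (4.45% and 4.39%), and after another quantile normalization 2194 and 1502 (6.28% and 4.30%). With an array left out they were 707 to 2326 and 337 to 1594, lowest without fluoxetine replicate 1. For the other adhesion genes, the 34 higher were 20 without the trend, 10 with 1 probe set per gene and 10 to 36 with an array left out. Their 10 lower were 21 after another quantile normalization, 5 without the trend, 6 with 1 probe set per gene and 2 to 14 with an array left out. These counts, and those of the 24 probe sets, stand beside the shares given above for the same settings. With 1 probe set per gene, 102 probe sets of the other adhesion genes were tested. In that setting the Homer1 probe set past the correction was itself left out, since only the brightest per gene was kept. Fewer arrays or probe sets tested account by construction for part of the changes, and the cause of the rest was not tested. No paired analysis was possible because the labels give the groups no shared replicate numbers. Readings near the floor, such as Nlgn1 1421648_at, limit what can be said of those transcripts.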
